A study of Mus musculus with 8 samples.

Results

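The comparison set lungs taken 7 days after an instillation of single-walled carbon nanotubes (SWCNT) against lungs taken 1 day after it, that is the sub-chronic against the acute phase of the response, across all genes that the array could name. A gene was a member if at least 1 non-control probe set carried its symbol and no other, and its brightest probe set by the mean of the 8 arrays stood for it. There were 18191 such genes, of which 13854 passed a filter on dim signal and were tested, while the other 4337 were not. For 39 tested genes the brightest probe set failed the filter, and the brightest that passed stood for the gene. A total of 4 of the 8 arrays of the series were SWCNT arrays: 2 of day 1 and 2 of day 7.

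All mice were male and of ICR, an outbred strain. The sample labels give their age as 5 to 6 weeks, and the series text as 6 weeks. SWCNT mice received 0.5 mg of SE grade tubes into the exposed trachea in 1 dose under pentobarbital. The vehicle was 50 µl of 0.1% Pluronic F-68 (PF68), a detergent used to disperse tubes. Control mice received PF68 and no tubes, in an amount that the labels do not give separately, and had 2 arrays on day 1 and 2 on day 7. The labels give 1 procedure, with anaesthesia and a neck incision, for the instillation of either. RNA came from lobe 1 of the right lung. Arrays of a group are labelled biological replicates with no animals named, so the p-values measure a spread between arrays that may be technical.

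As background, tubes that reach the alveoli are engulfed by macrophages, which cannot readily degrade them. The first phase of the response to such fibres is known for neutrophils, acute phase proteins and chemokines. It is followed by the gathering of macrophages into granulomas, by antigen presentation and by matrix remodelling.

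Markers of lung were bright on all arrays. Ager and Hopx of alveolar type 1 cells, Sftpc, Sftpb and Sftpa1 of type 2 cells and Scgb1a1 of club cells lay between 5.93 and 8.31 on a log2 scale on which the array median was -0.63. The SWCNT arrays of day 1 stood apart in other tissue markers. The mean of 25 skeletal muscle genes was 2.35 and 2.37 there and between -0.48 and -0.26 on the other 6 arrays, and squamous epithelium, cardiac muscle and fat genes were also highest there. The PF68 arrays of day 1 stood apart in 29 type I interferon genes, with means of 2.95 and 2.92 against 1.02 to 1.32 on the other 6.

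The 3′ signal of control transcripts relative to their 5′ signal, which can reflect RNA quality, moved with the day. The 3′ probe set of the actin control exceeded its 5′ probe set by 1.31 and 1.36 log2 units on the SWCNT arrays of day 1 and by 2.99 and 2.94 on those of day 7. The Gapdh control gave 0.75 and 0.68 on day 1 and 2.31 and 2.11 on day 7, and PF68 arrays also had higher values on day 7. Probe sets that read different places of a transcript therefore need comparing. Among the 5810 genes with more than 1 passing probe set, the change measured by the brightest exceeded the mean change of the others by a median of 0.21 in SWCNT lungs and 0.20 in PF68 lungs. For the SWCNT change minus the PF68 change, the same median was 0.015. Agreement gene by gene was low for both. Across these genes the brightest and the other probe sets correlated at 0.24 for the SWCNT change and 0.19 for that difference.

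**Figure D1:**
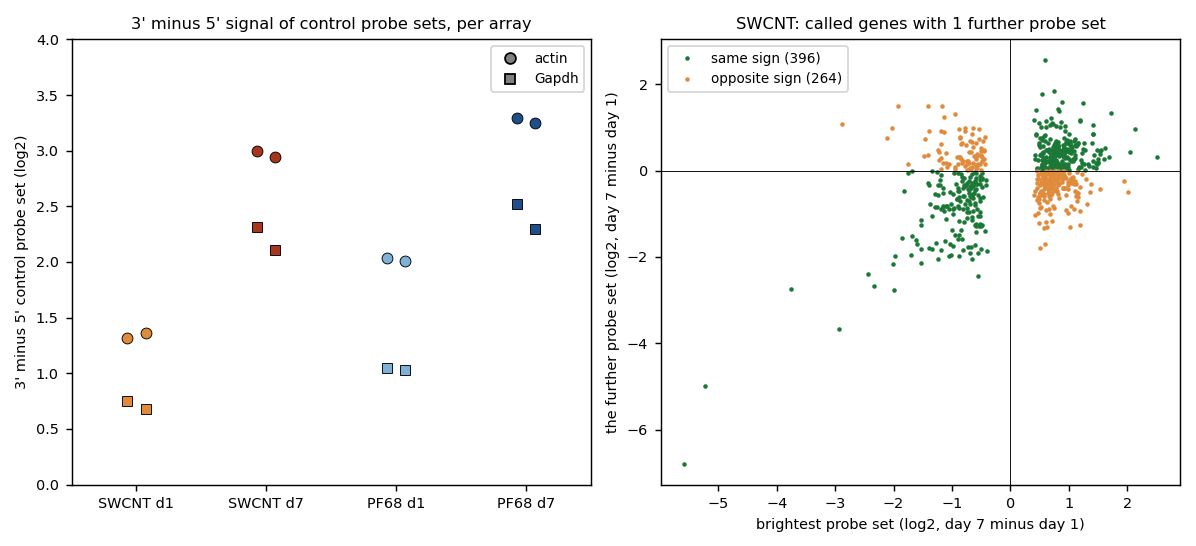
Left, the 3′ minus 5′ signal (log2) of the actin and Gapdh control probe sets on each array, by group; all day 7 arrays lie above all day 1 arrays for both controls. Right, for the 660 genes called in SWCNT lungs that had exactly 1 further probe set, the change from day 1 to day 7 (log2) by the brightest probe set (x axis) against the further one (y axis); 396 had the same sign and 264 the opposite sign.

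From day 1 to day 7, 2257 of 13854 genes changed in SWCNT lungs at an adjusted p of 0.05 or less, which is 16.3% of those tested. Of these, 1329 rose (9.59%) and 928 fell (6.7%). The falls were the larger changes: 55 genes fell and 14 rose by at least 2 log2 units, and 20 fell and 1 rose by at least 3. The median difference over all genes was 0.09. The day 7 and day 1 arrays did not overlap for 62.8% of genes, and for a single gene an exact permutation test of 2 arrays against 2 cannot go below a p of 0.333.

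In PF68 lungs over the same interval, 2455 genes changed (17.7%), with 8.86% higher and 8.86% lower. Scaled on the spiked-in control RNAs, the PF68 split was 172 higher and 5756 lower, with the median of all genes at -0.56 in place of 0.04. A total of 503 genes rose and 440 fell in both treatments, together 41.8% of the SWCNT calls and 38.4% of the PF68 calls. The test of the SWCNT change minus the PF68 change called 324 genes (2.34%), 196 with the SWCNT change higher (1.41%) and 128 with it lower (0.924%). Spike scaling gave 6017 higher and 110 lower for this test, with the median of all genes at 0.80 in place of 0.05, so the balance of directions in both comparisons depends on the scaling. Among the genes called in SWCNT lungs, 116 that rose and 101 that fell also passed this test, 9.61% of the SWCNT calls. With each of the 8 arrays left out in turn, the test of the difference gave between 3 calls (without SWCNT day 1 array 1) and 74 calls (without PF68 day 7 array 1) in place of 324, and the PF68 comparison at most 1410 calls when a PF68 array was left out.

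The number of SWCNT calls changed with the arrays and the probe set used. Without day 1 array 1 or 2 it was 473 or 369, and without day 7 array 1 or 2 it was 248 or 91, with the lone array assumed to vary like the other groups. Without either PF68 array of day 1, whose spread the fit shares, it was 1375, and without either of day 7 it was 2319. The fit to the SWCNT arrays alone called 7. Of 740 genes that rose and had further probe sets, 416 had at least 1 on the other side, and of 460 that fell, 206 did. With the dimmest passing probe set of each gene in place of the brightest, a choice made after seeing the data, the calls numbered 849, of which 316 were higher and 533 lower. Spike scaling moved the median of all genes from 0.09 to 0.24. It gave 2200 higher and 620 lower calls in place of 1329 and 928. The part of the 3′ to 5′ shift between the days, or of RNA quality, in these calls was not tested.

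**Figure D2:**
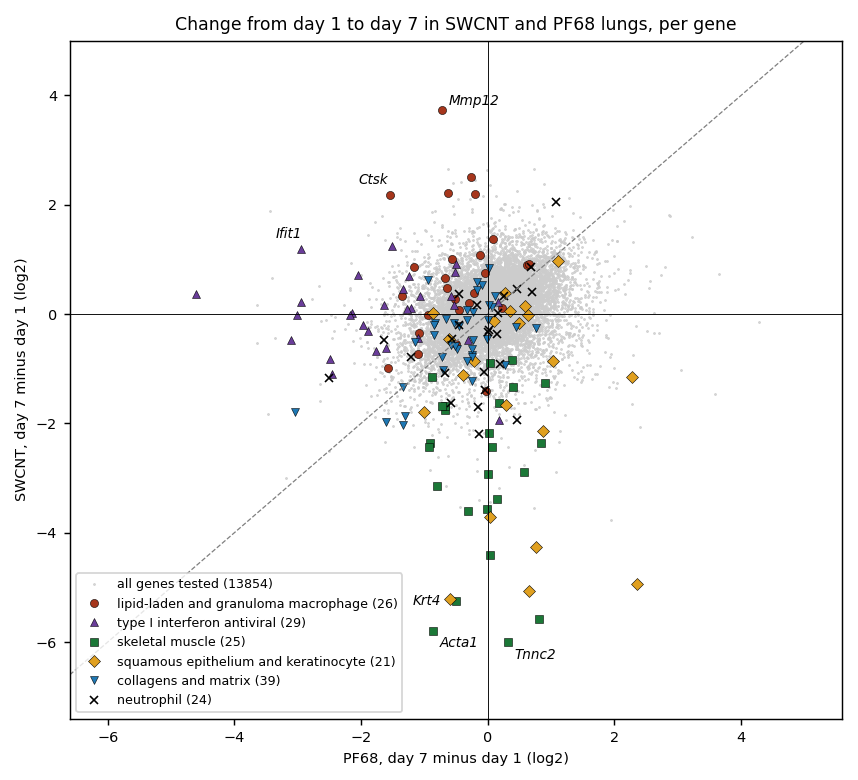
Change from day 1 to day 7 (log2) of every tested gene in PF68 lungs (x axis) and SWCNT lungs (y axis), with 6 lists marked by colour and shape; the dashed line marks equal change. Mmp12 lies highest, at 3.73 in SWCNT lungs; skeletal muscle genes have a median of -2.44 on the y axis and 0.02 on the x axis, and type I interferon genes one of 0.11 and -1.60.

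The largest rise of any gene was that of Mmp12, the macrophage elastase. Its values were -0.39 and -0.40 on the day 1 arrays and 3.33 and 3.34 on the day 7 arrays, a difference of 3.73 ± 0.18 (SE; adjusted p = 0.00265). The PF68 arrays gave -0.38 and -0.66 on day 1 and -1.46 and -1.01 on day 7. Only the SWCNT arrays of day 7 were high, no other of the 8 arrays exceeding -0.38, and the SWCNT change exceeded the PF68 change by 4.45 ± 0.26 (adjusted p = 0.00513).

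Mmp12 led a list of 26 measured genes of lipid-laden and granuloma macrophages, of which 14 rose, 3 fell and 9 were not called. The list's median change was 0.56 in SWCNT lungs and -0.51 in PF68 lungs, where 2 rose and 14 fell. For 11 members the SWCNT change lay above the PF68 change, and for 1 below. All 14 that rose either had no further probe set or had every further one on the same side. With any 1 SWCNT array left out, 3 to 6 members were called higher.

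Gpnmb, a membrane glycoprotein of phagocytes, read 2.12 and 2.23 on day 1 and 4.43 and 4.34 on day 7, a rise of 2.21 ± 0.12 (adjusted p = 0.00296). Ctsk, the collagen-cleaving cathepsin K, read 1.87 and 2.05 and then 4.12 and 4.17. Both genes fell in PF68 lungs, Gpnmb by 0.63 and Ctsk by 1.54, and both passed the test of the difference. Trem2, a lipid-sensing receptor, rose by 2.50 ± 0.52 from -1.42 and -0.63 to 1.52 and 1.43. Msr1, a scavenger receptor for modified lipoproteins and particles, rose by 2.20 ± 0.36 from -0.98 and -0.60 to 1.42 and 1.41. Neither Trem2 nor Msr1 passed the test of the difference from PF68, with adjusted p-values of 0.112 and 0.0767. The 3 members that fell included Fabp4, a fatty acid carrier of fat cells as well as macrophages, which fell by 1.41.

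**Figure D3:**
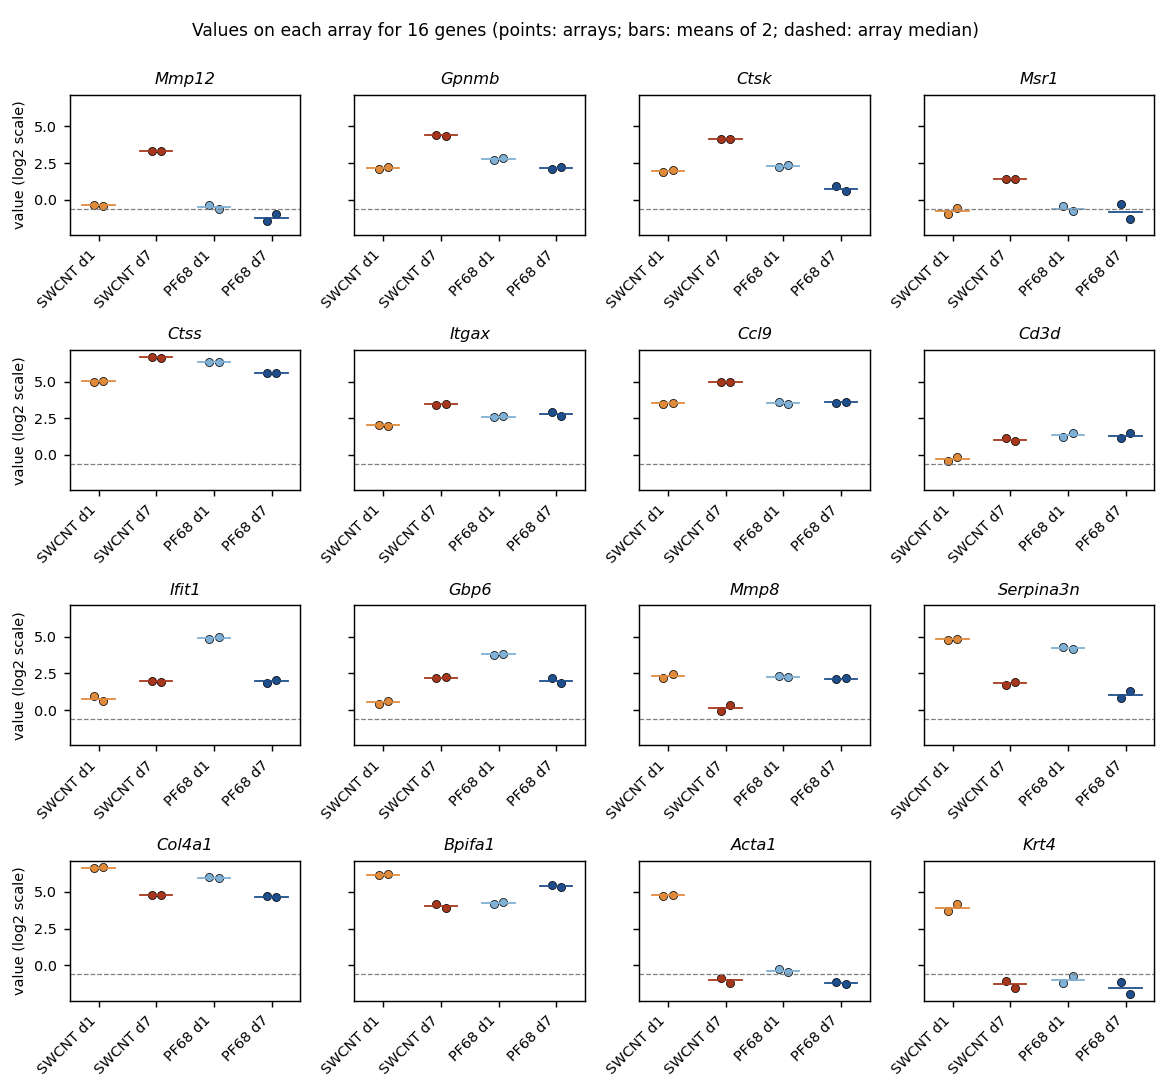
Values (log2 scale) of 16 genes on each of the 8 arrays, in columns for SWCNT day 1, SWCNT day 7, PF68 day 1 and PF68 day 7; bars are means of 2 arrays and the dashed line is the array median. The day 7 SWCNT arrays are highest for Mmp12, Gpnmb, Ctsk, Msr1, Ctss, Itgax and Ccl9, and the day 1 SWCNT arrays are highest for Serpina3n, Col4a1, Bpifa1, Acta1 and Krt4.

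The lysosome list, enzymes and pumps with which phagocytes digest cargo, had 14 of 34 members higher, 1 lower and 19 not called. Its median was 0.42 against -0.21 in PF68 lungs. Ctss, the cathepsin that trims the invariant chain of class II molecules, rose by 1.62 ± 0.10 from 4.99 and 5.05 to 6.70 and 6.59 (adjusted p = 0.00383). Hexa, which degrades gangliosides, rose by 1.39, Ctsd (cathepsin D) by 1.07 and Gla (alpha-galactosidase) by 1.07. In PF68 lungs 5 members rose and 11 fell, and for 8 the SWCNT change was higher by the test of the difference. Of the 14, 12 had no further probe set on the other side, and 2 to 7 were called higher with any 1 SWCNT array left out. With the dimmest probe set the list's median was 0.16.

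Among 20 alveolar macrophage genes, 9 rose, 3 fell and 8 were not called, with a median of 0.50 against 0.05 in PF68 lungs. Itgax (CD11c) rose by 1.43, from a mean of 2.01 on the day 1 arrays to 3.44 on the day 7 arrays, which did not overlap. Slc39a2, a zinc transporter, rose by 1.52, Olr1, a receptor for oxidized lipoprotein, by 1.38 and the keratin gene Krt79 by 1.33. Ctsk and Atp6v0d2 belong to this list and to the lysosome and granuloma lists. The granuloma list also shares Olr1 and Cd9 with this list, and Ctsb, Ctsd, Ctsl, Ctsz and Cd68 with the lysosome list. The counts of these lists therefore overlap. Monocyte and recruited macrophage genes had 8 of 23 members higher, 2 lower and 13 not called, and the median was 0.41. Clec7a (dectin-1), a receptor for fungal glucan, rose by 1.24 from 3.47 and 3.37 to 4.60 and 4.72, and the SWCNT change exceeded that of PF68 by 1.38 (adjusted p = 0.0336). C3ar1, a receptor for a complement fragment, rose by 1.30 and Clec4n (dectin-2) by 1.11. With any 1 SWCNT array left out, 2 to 4 of the alveolar macrophage genes and 0 to 3 of the monocyte genes were called higher.

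Promoter letters are shown for 4 of the genes that rose, since motifs of interferon, AP-1 and lysosomal control are known for these families. RefSeq's GRCm38.p6 table held promoters, from 250 bases before to 50 after a start, for 11133 of the 13854 tested genes. Capitals mark the motif, searched on both strands: GAAA, any 2 bases and GAAA for the interferon-stimulated response element (ISRE), TGACTCA for AP-1 (read as TGAGTCA on the other strand) and CACGTG for the E-box. The stretches end before the annotated start. Ifit1 is chr19:34640760-34640838 (+), Ctss chr3:95526730-95526785 (+), Mmp12 chr9:7347294-7347372 (+; the more downstream of its listed starts) and Ctsd chr7:142387883-142387962 (-).
Ifit1: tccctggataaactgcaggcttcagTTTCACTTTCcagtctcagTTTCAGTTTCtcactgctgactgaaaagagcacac
Ctss: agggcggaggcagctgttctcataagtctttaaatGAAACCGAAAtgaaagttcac
Mmp12: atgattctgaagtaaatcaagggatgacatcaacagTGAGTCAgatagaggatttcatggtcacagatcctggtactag
Ctsd: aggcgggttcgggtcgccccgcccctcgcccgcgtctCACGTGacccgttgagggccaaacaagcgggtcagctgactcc

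The ISRE letters stood in 12 of 20 type I interferon promoters, against 3.56% of the promoters of all tested genes. AP-1 letters stood in 4 of 17 promoters of the granuloma macrophage list, against 4.99% of all. Genes called higher held them in 5.13% and genes called lower in 7.67%, and squamous genes, most of whose calls were falls, in 4 of 11 promoters. E-box letters stood in 10 of 26 lysosome promoters, 38.5%, against 1224 of 11133 in all. These matches describe the letters of the windows and are not evidence of binding.

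Of 13 measured genes of the MHC class II route, 6 rose and none fell, with a median of 0.73 against -0.19 in PF68 lungs. Of the 6, 1 passed the filter through the SWCNT arrays of day 7 alone and so had to differ. H2-Ab1, a class II chain, rose by 0.83 from 3.90 and 4.09 to 4.71 and 4.95. H2-Aa, its partner chain, rose by 1.48 by its brightest probe set, while its further probe sets gave -0.04 and 0.16. H2-Eb2 rose by 2.42 ± 0.52 but was dim, with all 4 SWCNT arrays between -3.33 and -0.27. The list's mean was 2.05 and 1.81 on the SWCNT arrays of day 1 and between 2.65 and 2.89 on the other 6 arrays, so the day 1 SWCNT arrays were the low group. With any 1 SWCNT array left out, 1 or 2 members were called.

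Dendritic cell genes had 4 of 16 members higher and none lower, beside 9.59% and 6.7% of all tested genes. Fscn1, an actin bundler of mature dendritic cells, rose by 1.42 and Cd83, a maturation marker, by 1.13. Of 19 T cell genes, 3 rose, 1 fell and 15 were not called, a share near the 16.3% of all tested genes. Cd3d, a chain of the T cell receptor complex, rose by 1.29 from -0.39 and -0.12 to 1.15 and 0.92, and Cd3e, another chain of it, by 1.26. Their PF68 arrays lay between 1.03 and 1.47 on both days, so the 2 day 1 SWCNT arrays were below the other 6. Neither passed the test of the difference from PF68, with adjusted p-values of 0.0629 and 0.0992. Cd8b1, a chain of the CD8 coreceptor, fell by 1.08 in SWCNT and by 1.66 in PF68 lungs. At most 2 dendritic cell genes and 1 T cell gene were called higher when 1 SWCNT array was left out.

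Of 14 CC chemokine genes, which draw monocytes and lymphocytes, 3 rose and none fell, a share near the 16.3% of all tested genes. Ccl9 rose by 1.47 ± 0.11 from 3.45 and 3.57 to 4.98 and 4.97 (adjusted p = 0.00514), while its PF68 arrays lay between 3.45 and 3.64, and the SWCNT change exceeded that of PF68 by 1.40 (adjusted p = 0.0249). Ccl6 rose by 0.89 and Ccl8 by 0.58. Ccl12 and Ccl7, with changes of 0.89 and -0.51, were not called (adjusted p = 0.149 and 0.225). Complement genes had 4 of 17 members higher and 2 lower, beside 9.59% and 6.7% of all tested genes. C2, a convertase component, rose by 1.40, Hc (complement C5) by 1.17 and C6 of the membrane attack complex by 1.16. Of 10 inflammasome genes, 3 rose and none fell, beside the same shares of all tested genes. Naip5, a sensor of bacterial flagellin, rose by 1.25, the adaptor Pycard by 0.95 and the cytokine Il18 by 0.80. No inflammasome member was called with any 1 SWCNT array left out, while 1 or 2 of the CC chemokines and 0 to 2 of the complement genes were called higher. The complement median, 0.24, was -0.11 without SWCNT day 7 array 1.

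Mitotic genes had 4 of 28 members higher and none lower, a share near the 16.3% called among all tested genes. Their median was 0.31, while in PF68 lungs 10 fell and the median was -0.75. Mki67, the proliferation marker Ki-67, read 0.44 and 0.17 on day 1 and 1.79 and 1.49 on day 7, a rise of 1.33 ± 0.28 (adjusted p = 0.0289). It read 1.49 and 1.51 on the PF68 arrays of day 1 and 0.59 and -0.19 on those of day 7, so its order between the days was opposite in the 2 treatments, and the difference of 2.63 passed the test (adjusted p = 0.0409). Cdca8, of the chromosomal passenger complex, rose by 1.15 and fell by 1.19 in PF68 lungs. Between 0 and 2 members were called with any 1 SWCNT array left out.

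Most interferon genes fell in PF68 lungs and were not called in SWCNT lungs. Of 29 type I interferon genes, 6 rose, 2 fell and 21 were not called in SWCNT lungs, with a median of 0.11 (-0.021 without SWCNT day 1 array 2), while in PF68 lungs 21 fell and none rose, with a median of -1.60. Ifit1, which binds viral RNA, rose by 1.18 ± 0.17 from 0.97 and 0.59 to 2.01 and 1.93. Its PF68 values were 4.84 and 5.01 on day 1 and 1.87 and 2.08 on day 7. All 4 arrays of day 7 thus lay between 1.87 and 2.08, and the day 1 PF68 arrays were the high ones. The SWCNT change exceeded the PF68 change for 17 of the 29 genes. Dhx58, a helicase of viral RNA sensing, rose by 1.25, whereas the oligoadenylate synthetase genes Oas3 and Oasl2 fell by 1.94 and 1.10.

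The list of interferon gamma GTPases and chemokines had 5 of 19 members higher and none lower, against 15 lower in PF68 lungs, and 11 passed the test of the difference. Gbp6, a guanylate-binding protein, rose by 1.69 from 0.41 and 0.65 to 2.20 and 2.23 and fell by 1.78 in PF68 lungs. The immunoproteasome subunit gene Psmb9 rose by 0.68. Irgm2 and Igtp, which guard vacuoles, were among the largest differences between the treatments at 3.17 and 3.05, but their SWCNT changes of 0.50 and 0.27 did not pass the test (adjusted p = 0.157 and 0.173). Trim30d, with a difference of 2.93, had an SWCNT change of -0.43 (adjusted p = 0.384). Leaving out 1 SWCNT array left 1 or 2 type I interferon genes and at most 1 gene of the gamma list called higher.

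**Figure D4:**
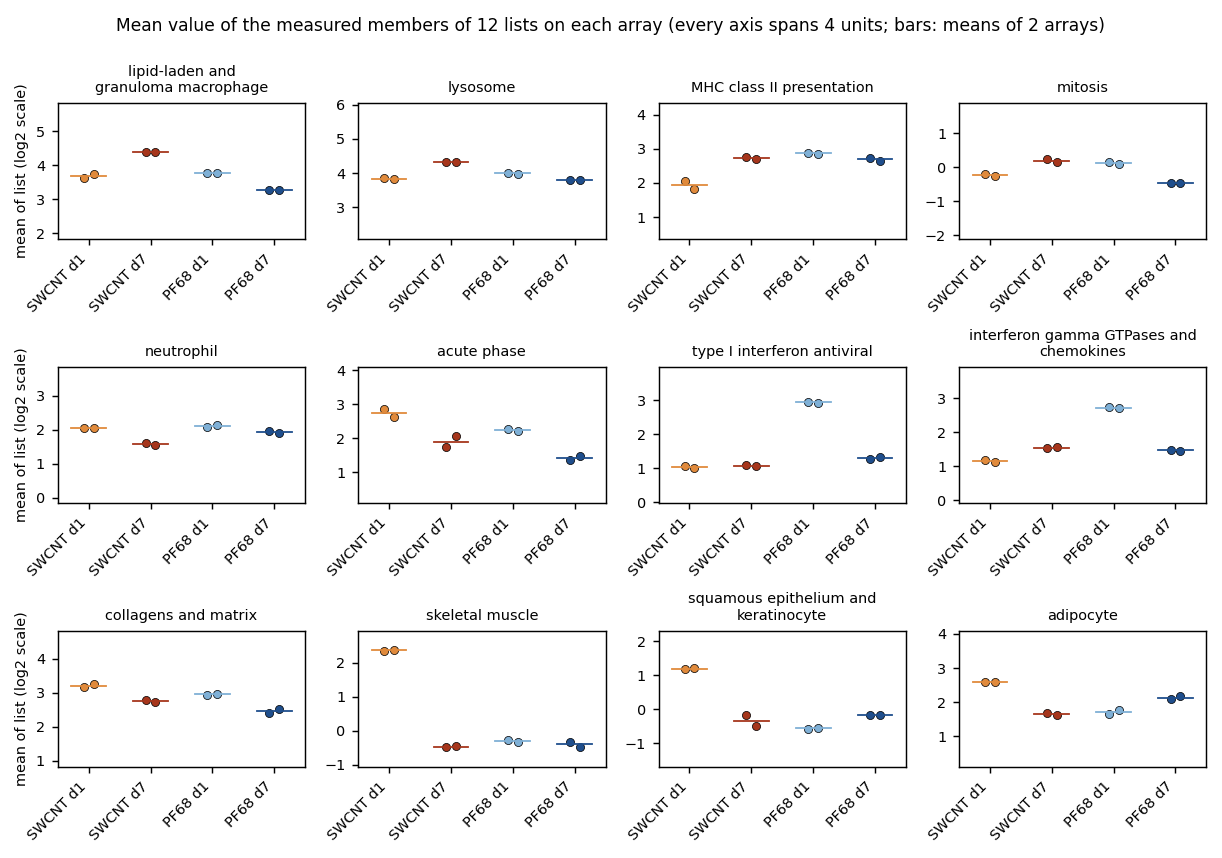
Mean value (log2 scale) of the measured members of 12 lists on each array, in columns for the 4 groups; bars are means of 2 arrays and every axis spans 4 units. The SWCNT arrays of day 1 are highest for skeletal muscle, squamous and adipocyte genes, those of day 7 are highest for granuloma macrophage and lysosome genes and lowest for neutrophil genes, and the PF68 arrays of day 1 are highest for both interferon lists.

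Neutrophil genes had 9 of 24 members lower, 3 higher and 12 not called. Their median was -0.41 against -0.05 in PF68 lungs, where 3 rose and 3 fell. Of the 9 that fell, 1 passed the filter through the SWCNT arrays of day 1 alone and so had to differ. The list's mean on day 1 was 2.06 and 2.04 on the SWCNT arrays and 2.08 and 2.14 on the PF68 arrays. On day 7 it was 1.60 and 1.56 on the SWCNT arrays and 1.95 and 1.89 on the PF68 arrays. The SWCNT arrays of day 1 were thus not above the PF68 arrays of that day. Mmp8, the neutrophil collagenase, read 2.20 and 2.46 on day 1 and -0.04 and 0.32 on day 7, a fall of 2.19 ± 0.16 (adjusted p = 0.00514). Its PF68 arrays lay between 2.10 and 2.30 on both days, so the day 7 SWCNT arrays were below the other 6, and the SWCNT change lay below that of PF68 by 2.05 (adjusted p = 0.0248). Cxcr2, the receptor for neutrophil-drawing chemokines, fell by 1.93, the decoy receptor Il1r2 by 1.71 and Csf3r, the G-CSF receptor, by 1.63. Hdc, which makes histamine in mast cells and neutrophils, rose by 2.05 from 1.11 and 1.73 to 3.47 and 3.48. Its further probe set gave 0.43, and it also rose in PF68 lungs, by 1.07. With any 1 SWCNT array left out, 3 to 7 neutrophil genes were called lower. In bulk tissue, fewer cells of a type and less RNA per cell cannot be told apart.

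Of 17 genes for CXC chemokines, IL-1 family signals and the cytokines Il6, Tnf and Csf2, 5 fell and none rose. These were the same counts as in PF68 lungs. The list's median of -0.14 turned to 0.015 under spike scaling. Leaving out 1 SWCNT array left 2 or 3 called. Cxcl5, a neutrophil attractant of alveolar epithelium, fell by 1.23 from 0.66 and 0.49 to -0.61 and -0.70 and by 1.16 in PF68 lungs. The B cell attractant Cxcl13 fell by 2.34 from 2.66 and 2.70 to 0.42 and 0.26. Il6 fell by 0.91, with both day 7 arrays below the array median. Cxcl14 fell by 1.61 and was the 1 member whose SWCNT change lay below that of PF68 (difference -1.29, adjusted p = 0.0379).

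Acute phase genes had 6 of 15 members lower and 1 higher, with a median of -0.96 against -0.58 in PF68 lungs, where 6 fell. Serpina3n, a protease inhibitor, read 4.78 and 4.85 on day 1 and 1.70 and 1.94 on day 7, a fall of 2.99 ± 0.19 (adjusted p = 0.00383). In PF68 lungs it read 4.28 and 4.19 and then 0.79 and 1.30, a fall of 3.19, so the changes differed by 0.20 (adjusted p = 0.725). Saa1, a serum amyloid A, fell by 1.68, Timp1, a metalloproteinase inhibitor, by 1.58 and Cp, the copper carrier ceruloplasmin, by 1.45. With any 1 SWCNT array left out, 1 to 3 members were called lower.

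Of 39 collagen and matrix genes, 15 fell, 3 rose and 21 were not called, with a median of -0.38, and in PF68 lungs 15 fell and 1 rose with a median of -0.33. Col4a1, a basement membrane collagen, read 6.63 and 6.67 on day 1 and 4.80 and 4.78 on day 7, a fall of 1.86 ± 0.10 (adjusted p = 0.00296), and fell by 1.31 in PF68 lungs. Thbs1 (thrombospondin 1) fell by 1.97 and by 1.61. Lox, which crosslinks collagen, fell by 1.80 in SWCNT and by 3.04 in PF68 lungs, and this difference passed the test (adjusted p = 0.027). Col1a1, of fibrillar collagen, fell by 1.34 by its brightest probe set, with -0.02 by its further one. Dcn (decorin) fell by 2.04, and its further probe set gave 0.99. Between 3 and 7 members were called lower with any 1 SWCNT array left out.

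Among 20 metalloproteinases and inhibitors, Mmp12 was the 1 gene that rose, and 7 fell. Mmp3 (stromelysin 1) fell by 1.59 and the inhibitor Timp3 by 1.42, with PF68 falls of 1.53 and 1.45. Growth factor genes of repair had 10 of 33 members lower and 3 higher. Tgfb3 read 2.37 and 2.43 on day 1 and 1.00 and 0.80 on day 7, and its fall of 1.50 had no counterpart of like size in PF68 lungs, where the change was 0.03 (adjusted p of the difference = 0.0347). Fst (follistatin), which binds activin, fell by 1.69 and by 1.33 in PF68 lungs. Fgf7, a growth factor of epithelium, fell by 1.06, and Igf1, which macrophages also make, rose by 0.98. With 1 SWCNT array left out, 2 to 4 metalloproteinase genes and 0 to 2 growth factor genes were called lower, and Mmp12 was called higher.

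Epithelial lists moved in different directions. Alveolar type 2 genes had 8 of 22 members higher and 1 lower, with a median of 0.31 against 0.09. Chil1 (chitinase-like 1) rose by 1.63 ± 0.13 from 5.11 and 5.21 to 6.80 and 6.77 and by 0.59 in PF68 lungs, and the phospholipid enzyme Lpcat1 rose by 0.86 by its brightest probe set, while its 3 others gave -0.05 to 0.54. Alveolar type 1 genes had 7 of 20 members lower and none higher, with a median of -0.34 against -0.26. Gprc5a, an orphan receptor abundant in lung, fell by 1.42 from 5.19 and 5.19 to 3.74 and 3.81, and the water channel Aqp5 fell by 0.75. No member was called with any 1 SWCNT array left out.

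Ciliated cell genes had 8 of 26 members higher and none lower in SWCNT lungs, with a median of 0.53, and 8 higher and 1 lower in PF68 lungs, with a median of 0.57. Tppp3, a tubulin polymerization protein, rose by 0.94 and by 0.93, and Tuba1a by 1.07 and 0.41. Airway secretory genes had 6 of 21 members lower and 1 higher, against 6 higher and 3 lower in PF68 lungs; the median of -0.03 turned to 0.12 under spike scaling. For 5 the SWCNT change lay below that of PF68. Bpifa1, a secreted defence protein of the upper airway, read 6.13 and 6.20 on day 1 and 4.15 and 3.91 on day 7, a fall of 2.14, and rose by 1.15 in PF68 lungs (difference -3.28 ± 0.19, adjusted p = 0.00513). Muc5b, a gel-forming mucin, fell by 1.87, and Reg3g, an antibacterial lectin, by 1.93 in SWCNT and by 0.98 in PF68 lungs. Without 1 SWCNT array, 3 airway secretory genes were called lower, and 0 to 3 ciliated and 1 to 4 type 2 genes higher.

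Endothelial genes had 9 of 27 members lower and 1 higher, and 8 lower and 2 higher in PF68 lungs. Emcn (endomucin) fell by 2.04 from 3.07 and 3.18 to 1.04 and 1.14, and by 1.17 in PF68 lungs. Pecam1 (CD31) fell by 1.07, and Ednrb, an endothelin receptor, by 1.18. No endothelial member passed the test of the difference, and 1 to 3 were called lower with any 1 SWCNT array left out.

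Of 25 Nrf2, glutathione and thioredoxin genes, which detoxify oxidants, 12 fell and none rose, with a median of -0.61 against -0.25 in PF68 lungs, where 9 fell. Gpx2, a glutathione peroxidase of epithelium, fell by 2.06 ± 0.13 from 2.93 and 2.99 to 0.88 and 0.93 (adjusted p = 0.00383) and by 0.94 in PF68 lungs. Gstm1, a glutathione transferase, fell by 1.47 and had a PF68 change of 0.04. Metallothionein, heme and iron genes had 9 of 21 members lower and 1 higher: Lcn2, which binds bacterial iron carriers, fell by 1.17, the metallothionein Mt2 by 0.90 and Hamp (hepcidin) by 1.34. Lcn2 and Mt2 fell further in PF68 lungs, by 2.50 and 2.11. Leaving out 1 SWCNT array left 2 to 4 of the Nrf2 list and 1 of the metal list called lower.

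Glucocorticoid-induced genes had 9 of 22 members lower and none higher, against 13 lower in PF68 lungs. Pdk4, which restrains glucose oxidation, fell by 2.43 from 3.48 and 3.34 to 0.92 and 1.05 and by 1.16 in PF68 lungs, and Fkbp5, a chaperone of the glucocorticoid receptor, fell by 1.18. Circadian clock genes had 5 of 21 members lower, and 8 lower in PF68 lungs, with medians of -0.25 and -0.43. Of all tested genes, 6.7% fell in SWCNT lungs and 8.86% in PF68 lungs. Nfil3, a clock repressor, had a change of -0.79 that was not called (adjusted p = 0.176). Nr1d1, the repressor REV-ERB alpha, fell by 1.39 from 2.35 and 2.49 to 1.08 and 0.98. The hour of sampling is not given in the labels. Glycolysis and hypoxia genes had 10 of 27 members lower and none higher, and 6 lower in PF68 lungs, with Ankrd37 down by 1.83 and Bnip3, of mitophagy, by 1.05. Oxidative phosphorylation genes had 10 of 32 members higher and 1 lower, and 8 higher and 2 lower in PF68 lungs. The 10 became 5 with the mean of probe sets and 1 with the dimmest. Ndufv2, of complex I, rose by 1.04 by its brightest probe set, while its 2 others gave -0.14 and 1.29, and no member of that list passed the test of the difference. With any 1 SWCNT array left out, 1 to 4 glucocorticoid, 0 or 1 clock and 0 to 4 glycolysis genes were called lower, and 0 to 2 oxidative phosphorylation genes higher.

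Enzymes of xenobiotic metabolism moved both ways, with 4 of 22 higher and 6 lower, beside 9.59% and 6.7% of all tested genes. Cyp2e1, an ethanol-metabolizing P450 abundant in liver and present in fat, read 4.18 and 4.10 on day 1 and 0.67 and 0.51 on day 7, a fall of 3.55 ± 0.13 (adjusted p = 9.63e-04), and rose by 0.74 in PF68 lungs. Cyp1a1, the classic target of the aryl hydrocarbon receptor, rose by 1.28 from -0.16 and 0.15 to 1.38 and 1.18 and by 1.90 in PF68 lungs. Leaving out 1 SWCNT array left 0 to 2 of the enzymes called higher and 1 to 3 lower.

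The largest falls were in genes of tissues other than lung parenchyma. Of 25 skeletal muscle genes, 23 fell and none rose, with a median of -2.44 against 0.02 in PF68 lungs, where 3 fell. Acta1, skeletal actin, read 4.74 and 4.80 on day 1 and -0.85 and -1.21 on day 7, a fall of 5.80 ± 0.16 (adjusted p = 4.90e-04). Tnnc2, fast troponin C, read 3.49 and 3.53 and then -3.21 and -1.78, and Myh1, a fast myosin heavy chain, 4.07 and 3.89 and then -1.28 and -1.91. Myl1, Tnnt3, Mylpf and Myh8, further parts of the sarcomere, fell by 5.25, 4.40, 3.60 and 3.56. The 2 SWCNT arrays of day 1 were the high ones for each of these, and for 12 of the 25 the SWCNT change lay below that of PF68. On day 7 these genes lay below the array median, where no background flag was given, so the sizes of the falls are uncertain. Among all tested genes, 66 passed the filter through the SWCNT arrays of day 1 alone, and 34 of them were called; 52 passed through those of day 7 alone, 16 of them called. Such genes had to differ. The 66 held 8 skeletal muscle genes, 7 of them called, and 6 squamous genes, 5 of them called. They also held 1 neutrophil gene, and the 52 held 1 class II gene, both called.

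Cardiac muscle genes had 16 of 25 members lower and 1 higher, with a median of -1.17. Nppa, an atrial hormone gene, read 4.47 and 4.35 on day 1 and 1.20 and 1.24 on day 7, and Tnnt2, cardiac troponin T, fell by 2.01. Smooth muscle genes had 8 of 13 lower and none higher; Des (desmin) fell by 1.71 and Acta2 by 0.89. Of 21 squamous epithelium genes, 6 fell and 1 rose. Of the called genes, 5 passed the filter through the SWCNT arrays of day 1 alone and so had to differ. Krt4, a keratin of oesophageal and similar linings, read 3.71 and 4.14 on day 1 and -1.05 and -1.53 on day 7, a fall of 5.22 ± 0.35. Its partner Krt13 fell by 5.07, and Krtdap, Mt4, Crct1 and Rptn of stratified epithelium fell by 4.95, 4.27, 3.72 and 3.53.

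Of 15 adipocyte genes, 7 fell and none rose. Car3, a carbonic anhydrase of fat and muscle, read 5.65 and 5.50 on day 1 and 1.86 and 1.77 on day 7, a fall of 3.76, and rose by 1.95 in PF68 lungs, from 2.16 and 2.17 to 4.07 and 4.16. Adipoq (adiponectin) fell by 2.90, and its PF68 rise was 1.08. Without the genes of the skeletal, cardiac and smooth muscle, squamous and adipocyte lists, 2196 calls were left of 2257. When 1 SWCNT array was left out, the genes called lower numbered 7 to 14 for skeletal muscle, 6 to 10 for cardiac muscle, 2 or 3 for smooth muscle, 3 or 4 for squamous epithelium and 2 to 6 for fat. The part of other tissue in the day 1 SWCNT lobes was not tested for the other falls.

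**Figure D5:**
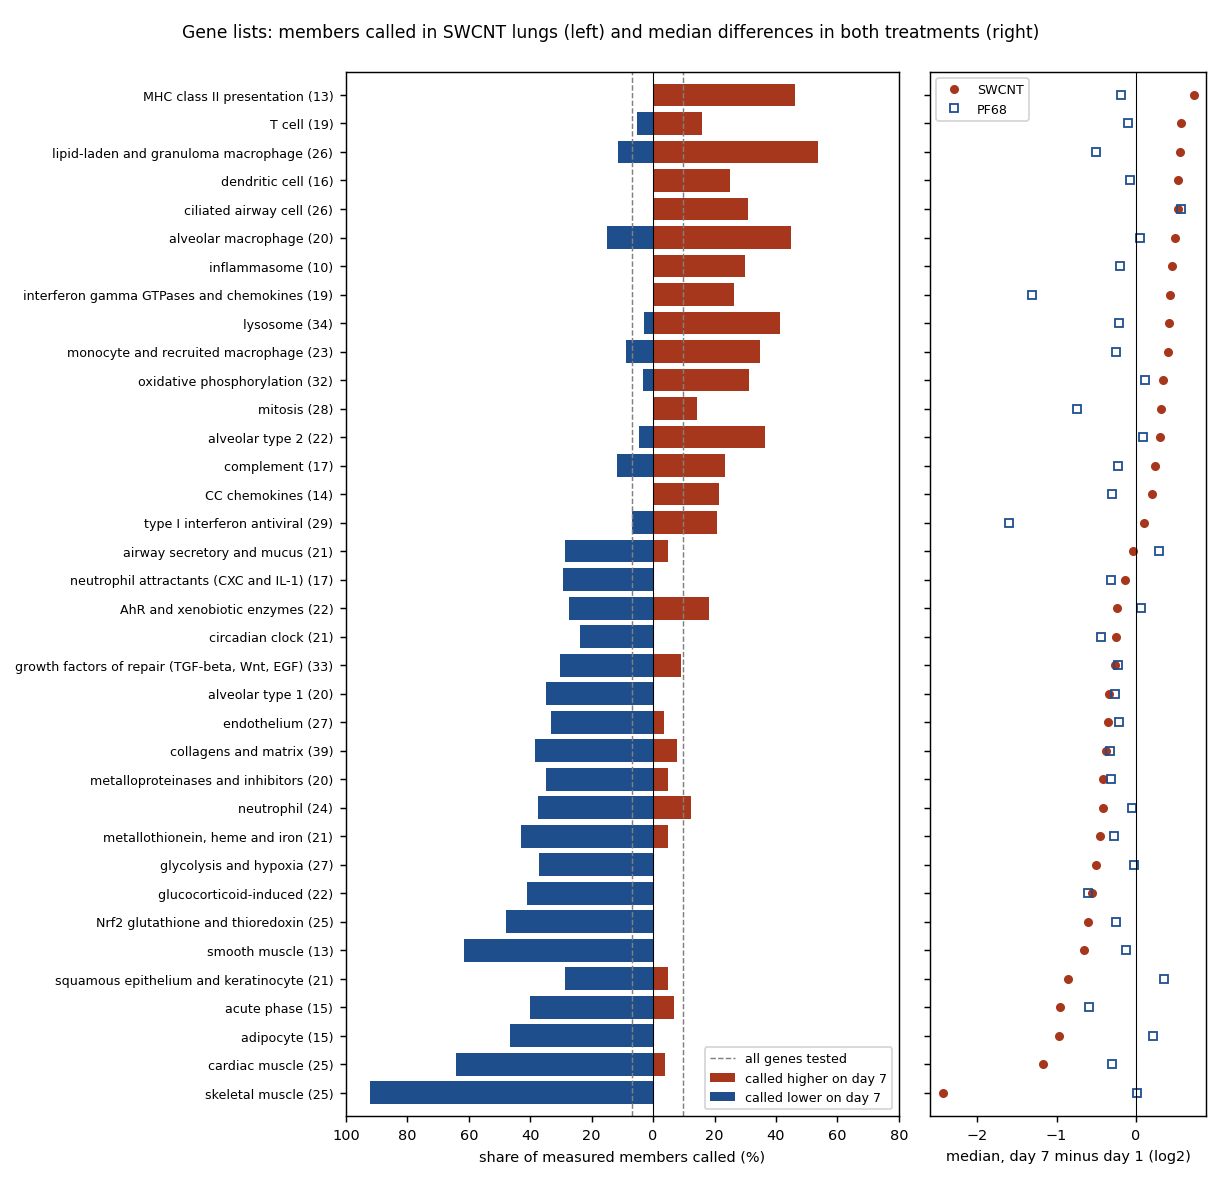
Left, the share (%) of the measured members of each of 36 lists called higher (right of 0) and lower (left of 0) on day 7 in SWCNT lungs, with the number measured in brackets and the shares of all tested genes as dashed lines. Right, the list medians (log2) in SWCNT (filled) and PF68 (open) lungs; MHC class II genes have the highest SWCNT median, 0.73, and skeletal muscle genes the lowest, -2.44.

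The remaining genes with the largest rises were of mixed kinds. Rgs1, a brake on chemokine receptor signalling in leukocytes, read -1.26 and -1.60 on day 1 and 0.97 and 0.89 on day 7, a rise of 2.36 ± 0.18 (adjusted p = 0.00518), and the difference from PF68 was 2.33 (adjusted p = 0.0236). Zfp994, a zinc finger gene, rose by 2.26 from dim values. Sema4f, a semaphorin, rose by 2.12 and by 1.28 in PF68 lungs. Mapre2, which binds microtubule ends, rose by 2.16 by its brightest probe set, while its 3 others gave -1.14 to -0.10. Ube2w, a ubiquitin-conjugating enzyme, rose by 2.01, and its further probe set gave -0.49. Cblif, Dync1i1 and Olfr16 rose by 2.65, 2.01 and 1.97, with day 7 values between -1.38 and 0.00, near the array median of -0.63.

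With the dimmest probe set, the granuloma list had 8 members called higher in place of 14, the lysosome list 7 in place of 14, the monocyte list 1 in place of 8, the class II list 2 in place of 6 and the interferon gamma list 1 in place of 5. Collagen and matrix genes had 6 called lower in place of 15, growth factors 4 in place of 10, the metal list 3 in place of 9 and smooth muscle 2 in place of 8. Among 28 mitotic genes limma called 0 in place of 4, with 5 higher at an unadjusted p of 0.05 or less. Neutrophil genes had 9 called lower with either probe set, but only 3 of the 24 had a further one, so the settings could hardly differ.

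The other 20 lists had between 6.25% and 44.4% of their members called in either direction, beside 16.3% of all tested genes.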

How the data were processed

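RNA of 8 mouse lung samples was hybridised to Affymetrix mouse arrays, 2 arrays in each of 4 groups. The authors deposited 1 table of normalised values, read here as log2 intensities. They were made with RMA, per the submitters' processing notes; the sources used here give no log base, offset or software version. All columns hold the same sorted values, as quantile normalisation leaves them. Of 45101 probe sets, 34945 carry 1 gene symbol (34741 with a RefSeq gene ID), 932 several, 9160 none in the annotation given, and 64 are controls. A gene was tested if any of its probe sets reached the array median on at least 2 of 8 arrays. The brightest of the probe sets that did so stood for it. The number of arrays, 2 a group, limits the precision.

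A limma 3.58.1 model (R 4.3.3) with 4 group means was fitted to the 8 arrays together, with moderated variances and Benjamini-Hochberg adjustment over 13854 genes. A gene was called at an adjusted p of 0.05 or less. SE values come from this fit and p-values are two-sided. The script was tested on simulated data. The members and the 56 gene lists (24 of cell types) were chosen with earlier results of these data known. Named genes were taken, with their values known, from those that a rule gives: the 15 largest rises and falls, the 10 largest differences from PF68 in each direction (called genes without overlap between the day 1 and day 7 arrays, leaving out predicted genes, pseudogenes and immunoglobulin or T cell receptor segments), and the 5 largest changes of each list, called or not. Lung markers were named as markers. Alternatives changed the filter, the probe set, the scaling, the variance model, the arrays and a minimum difference of 1. There were 0 columns of other samples.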

Additional observations from a re-analysis of the deposited data

Results flagged for a closer look

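For 20 genes, the 10 largest in each direction by the naming rule, the change from day 1 to day 7 differed between the treatments by the test of the SWCNT change minus the PF68 change. Among those with the SWCNT change higher, Aqp3, a water and glycerol channel, had the largest difference, 5.31 ± 0.76 (adjusted p = 0.0388). It read -2.51 and -1.82 on day 1 and -0.68 and 0.11 on day 7 in SWCNT lungs, and 0.61 and 1.47 and then -1.80 and -2.99 in PF68 lungs. The macrophage genes Mmp12, Ctsk and Gpnmb differed by 4.45, 3.73 and 2.84. The interferon genes Ifit1, Gbp6, Irgm2, Igtp and Trim30d differed by 4.13, 3.47, 3.17, 3.05 and 2.93, and for these the PF68 arrays of day 1 were the highest of the 8. Pcdhb13, a protocadherin, differed by 3.45. It read -1.95 and -1.89 and then -0.01 and -0.25 in SWCNT lungs, a rise of 1.79, and fell by 1.66 in PF68 lungs.

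Among those with the SWCNT change lower, the muscle genes Myh1, Tnnc2, Acta1, Myl1 and Tnnt3 differed by -6.40, -6.33, -4.94, -4.75 and -4.44. The squamous epithelium genes Krtdap, Mt4 and Krt4 differed by -7.30, -5.02 and -4.63, and for all 8 genes the SWCNT arrays of day 1 were the highest. In the whole lists, 8 of 25 skeletal muscle and 6 of 21 squamous genes passed the filter through those arrays alone. Such genes had to differ. Krtdap read -3.27 and -5.88 on the PF68 arrays of day 1, the latter the lowest value on any array. Car3 differed by -5.71 and Cyp2e1 by -4.28, with a rise in PF68 lungs in both.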

How the results depend on the processing

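In place of 2257 SWCNT calls, 1726 were made with a replicate block, 660 at a difference of at least 1, 849 with the dimmest probe set, 1384 with the mean of probe sets, 1330 without probe sets marked as shared, 1317 without the filter, 7 from the SWCNT arrays alone and 3411 with trended robust variances; leaving out 1 array gave 91 to 2319. In place of 2455 PF68 calls, the same settings gave 1877 (block), 708, 938, 1455, 1555, 1407, 0 (PF68 arrays alone) and 3568; spike scaling gave 5928 and leaving out 1 array 0 to 1410. Where limma gave 0 PF68 calls, 4063 genes (PF68 arrays alone) and 3476 (without PF68 day 1 array 2) had an unadjusted p of 0.05 or less. In place of 324 difference calls, 30 were made with the block, 34 with the dimmest probe set, 157 with the mean, 148 without shared probe sets, 50 without the filter, 502 with the filter on 4 arrays, 6127 with spike scaling, 1382 with trended robust variances and 3 to 74 without 1 array. Same-numbered arrays did not deviate together across all genes, with correlations between -0.01 and 0.01. A correlation over all genes cannot show a pairing that touches only some of them. With the block, 8 of 120 named called genes lost their call. Without at least 1 array 78 of the 120 lost it, and 0 changed sign.

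Signs turned as follows, and the cause was not tested. With the dimmest probe set Dcn was 0.99, H2-Aa -0.042, Lpcat1 -0.055, Mapre2 -0.18, Sftpa1 1.24 and Ube2w -0.49. Without shared probe sets Mapre2 was -1.14, Ndufv2 -0.14 and Sftpa1 1.24, and with the mean of probe sets Sftpa1 was 0.52. Spike scaling gave Ager 0.11, the airway secretory median 0.12 and the median of the CXC chemokine and cytokine list 0.015. The complement median was -0.14 with the filter on 4 arrays. Without 1 array, list medians ranged from -0.11 to 0.034 for airway secretory genes and from -0.11 to 0.25 for complement. They ranged from -0.14 to 0.011 for the CXC chemokine and cytokine list and from -0.021 to 0.11 for type I interferon genes. The number of arrays and the change of 3′ signal with the day limit all counts.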
